A study of Mus musculus with 6 samples.

Results

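The comparison was between untreated peritoneal exudate cells of a mouse line that the labels call NF-IL6 KI(LAP) (KI) and untreated cells of NF-IL6 knockout mice (KO). It used the 2 untreated mutant arrays, chosen by their titles, of 6 in the series, and all 12422 probe sets that are not Affymetrix controls. The other 4 arrays were an untreated wild-type array (WT) and the 3 genotypes after lipopolysaccharide (LPS) with interferon-γ, an inflammatory stimulus of macrophages. Stimulation lasted 12 h in KO and KI cells, and no time is given for WT. Every sample carries the strain label C57BL/6. The labels give no age, sex or number of mice, do not say whether animals were pooled, and do not describe how the knock-in allele was built or in which cells it is active. With 1 array in each group there is no replicate spread, so differences are given by size and none has a p-value.

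Cebpb encodes NF-IL6, now called C/EBPβ, which binds DNA as a dimer through a basic leucine zipper. Its mRNA is translated from alternative start codons into LAP, an activating form, and LIP, a shorter form that binds DNA but lacks the activating region. In macrophages C/EBPβ is known for driving acute-phase, arginase and antibacterial genes, and for the survival and maturation of monocytes. KO cells lack the factor, and the name of the KI line points to its LAP form, so the comparison asks what differs in untreated cells between an allele carrying LAP and no allele at all.

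Promoter sequence is shown for 3 genes on which the results turn, as the 250 bases upstream of the RefSeq start on GRCm38.p6, 5′ to 3′. Saa3, an acute-phase serum amyloid gene described as a C/EBPβ target, was higher in KI; Chil3, a chitinase-like protein of activated macrophages also described as a target, was lower; and Ltc4s, leukotriene C4 synthase, had the largest fall. The windows lie at chr7:46715677-46715926 (minus strand), chr3:106167565-106167814 (minus strand) and chr11:50238533-50238782 (minus strand). Capitals mark matches to TTNNGNAA on either strand (TTNCNNAA when read on the other), a loose form of the palindrome that C/EBP factors bind.
Saa3: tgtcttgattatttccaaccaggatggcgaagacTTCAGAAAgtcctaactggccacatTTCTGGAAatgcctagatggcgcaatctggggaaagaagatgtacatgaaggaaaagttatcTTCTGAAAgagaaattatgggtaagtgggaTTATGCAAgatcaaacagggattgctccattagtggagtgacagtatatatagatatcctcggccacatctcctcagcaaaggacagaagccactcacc
Chil3: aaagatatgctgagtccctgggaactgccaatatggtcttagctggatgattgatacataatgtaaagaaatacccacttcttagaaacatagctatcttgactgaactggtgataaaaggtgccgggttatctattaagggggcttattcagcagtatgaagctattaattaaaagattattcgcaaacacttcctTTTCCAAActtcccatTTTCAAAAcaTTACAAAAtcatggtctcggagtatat
Ltc4s: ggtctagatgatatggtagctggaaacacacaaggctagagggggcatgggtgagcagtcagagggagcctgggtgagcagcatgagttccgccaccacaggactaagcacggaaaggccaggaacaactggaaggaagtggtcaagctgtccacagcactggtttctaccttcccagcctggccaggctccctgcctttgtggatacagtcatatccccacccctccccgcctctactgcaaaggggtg
Saa3 held 4 such matches, Chil3 held 3 and Ltc4s held 0. Over the genes with the largest differences the pattern was in 4 of 17 windows (23.5%) of those higher in KI and in 10 of 17 (58.8%) of those lower, against 36.8% of all 32851 windows. A stricter form, TTGCNNAA, was in 1 of 17 windows (5.88%) of the higher genes and 2 of 17 (11.8%) of the lower. It was in 9.56% of all windows. The full palindrome TTGCGCAA was in 0 windows of either set and in 0.164% of all windows. Windows were found for 12 of 16 higher and 13 of 16 lower genes, and a gene can have several. These letters describe the windows and show no binding.

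Signals are linear MAS5 intensities brought to 1 scale, with a floor of 98.2, and differences are log2 of KI over KO. A difference with either signal under the floor is taken from the floor and is a lower bound on its size. A size of at least 1, which is a fold of 2, is called higher or lower below. Of 8022 probe sets above the floor on either array, 266 (3.32%) were higher in KI, 500 (6.23%) were lower and 7256 (90.5%) lay within 1. Among the 5983 measured genes with a name, 204 (3.41%) were higher and 385 (6.43%) lower. The median difference was -0.09, and 5% of probe sets lay below -1.07 and 5% above 0.84. The KO signal was under the floor for 75 of the higher probe sets, and the KI signal for 137 of the lower ones. The split depended on the scaling: 34.7% of called probe sets were higher in KI here, 51.6% after quantile normalization (335 higher, 314 lower) and 63.2% after median centring (461 higher, 269 lower). The deposited median signal was 148 on the KI array and 173 on the KO array, and 57.4% and 61.1% of probe sets were above the floor; the part of this gap in the split was not tested.

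**Figure D1:**
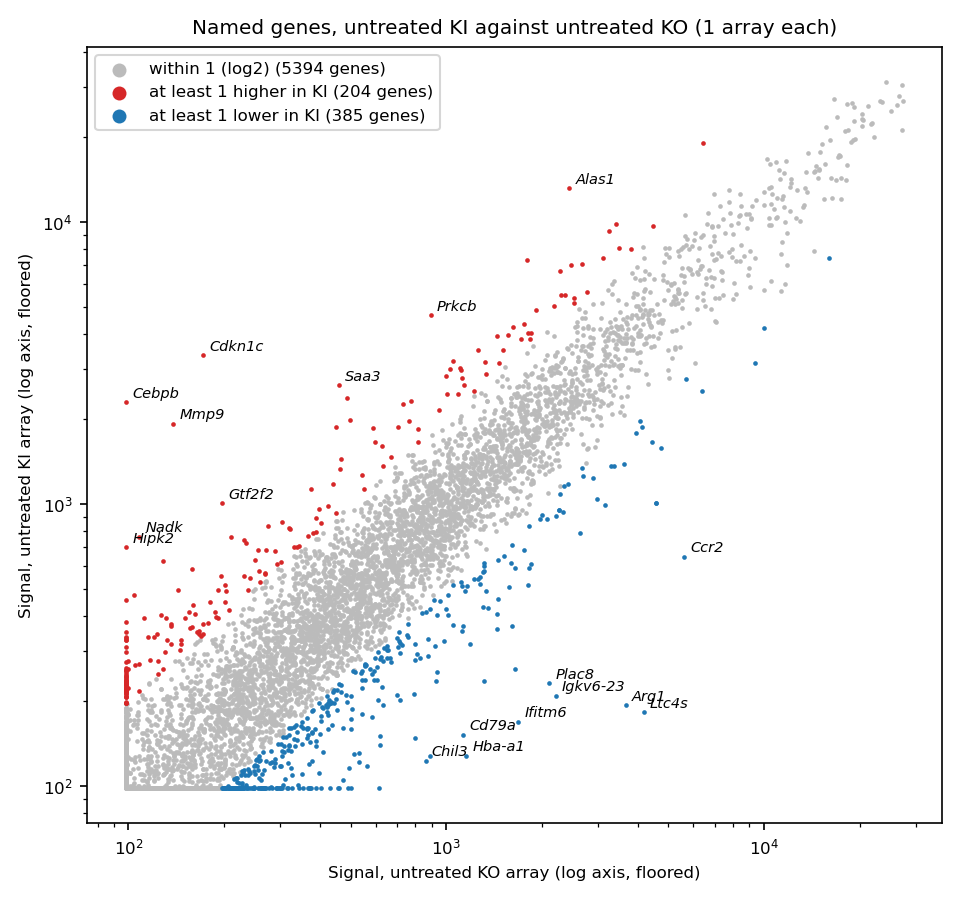
Signal of each measured named gene on the untreated KO array (horizontal) and the untreated KI array (vertical), both on log axes and floored at 98.2, with 1 array each. The 204 red genes were at least 1 higher in KI on the log2 scale and the 385 blue genes at least 1 lower; Cebpb, Cdkn1c and Mmp9 lie farthest above the diagonal and Ltc4s and Arg1 farthest below.

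Probe sets for 1 gene give the nearest view of technical error. Over 1404 pairs of probe sets of the same gene, both above the floor, the differences were a median of 0.40 apart and 1 in 10 pairs were more than 1.09 apart. Of 108 other probe sets of called genes, 79 (73.1%) had the same sign and 18 (16.7%) passed 1 the same way. A single gene near the call size is therefore weakly supported, and the account turns on the 16 largest differences in each direction among genes whose brighter array reached 532, and on gene lists.

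Cebpb itself had the largest rise. Its signal was 12.7 in untreated KO cells, 2285 in KI and 5488 in WT, and 59.0, 5893 and 9324 after stimulation. The KO signals were under the floor, so KI exceeded KO by at least 23.3-fold untreated, and by at least 5.91 on the log2 scale stimulated. The KI signal was below WT in both states, 2.40-fold lower in untreated cells. The probe set does not tell the LAP form from LIP, since both come from 1 mRNA. Of its paralogues, Cebpa was 11803 in KO, 9104 in KI and 7980 in WT, a difference of -0.37. Cebpd, an early-response member of the family, was 1222 in KO, 540 in KI and 991 in WT, 2.26-fold lower in KI.

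Saa3 followed the order of Cebpb. Its signal was 460 in KO, 2641 in KI and 16031 in WT, so KI was 5.75-fold above KO and 6.07-fold below WT. After stimulation the 3 signals were 2444, 5882 and 27331, in the same order with a smaller gap between KO and KI (2.41-fold). Slpi, a secreted inhibitor of neutrophil elastase, also lay between: 320 in KO, 821 in KI and 2117 in WT, then 328, 907 and 4590 after stimulation. Of the other 3 Slpi probe sets, differences were -0.42, 0.00 and 0.67, where 0.00 is the value given when both signals are under the floor. Il1a, a proinflammatory cytokine, was 115, 338 and 232 in untreated KO, KI and WT cells and 533, 2303 and 3954 in stimulated ones.

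For most other genes with large rises the WT signal was nearer to KO than to KI, so for these genes KI was the array apart. Cdkn1c, the imprinted CDK inhibitor p57, was 172 in KO, 256 in WT and 3365 in KI, 19.6-fold above KO. It stayed higher after stimulation, at 190, 195 and 1151. Mmp9, a matrix gelatinase of neutrophils and macrophages, was 138 in KO, 95.2 in WT and 1924 in KI, 3.81 above KO on the log2 scale, and 169, 259 and 510 when stimulated. Its other probe set was under the floor on every array. Alas1, which starts haem synthesis, was 2437 in KO, 1573 in WT and 13185 in KI, 5.41-fold above KO, and 3174, 4849 and 12041 when stimulated. Itgax, the CD11c integrin chain of dendritic cells and some macrophages, was 1797, 816 and 7307, 4.06-fold above KO, and 1527, 1629 and 3143 when stimulated. Its untreated KO signal was itself 2.2-fold above WT. Psat1, an enzyme of serine synthesis, was 489, 493 and 2376, then 1540, 1366 and 4030. In each of these the KI array was the highest of the 3 genotypes in both states.

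Other large rises did not pass 1 in the stimulated pair. Prkcb, a protein kinase C, was 893 in KO, 417 in WT and 4654 in KI untreated, and 656, 422 and 623 stimulated. Its other probe set differed by 2.64 in the same direction. Hipk2, a nuclear kinase, was 51.5, 36.7 and 700 untreated, at least 7.13-fold higher in KI, and 624, 83.5 and 509 stimulated. Ccnd1, cyclin D1, was 210, 135 and 765 untreated and 1542, 362 and 1699 stimulated, and its other probe set differed by 0.23. For Nadk, which makes NADP, KO was the low array: 108 in KO, 433 in WT and 765 in KI. It was 378, 556 and 411 stimulated, a difference of 0.12.

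The remaining 5 of the 16 rises were Gtf2f2 (2.36), a general transcription factor subunit; Mgll (2.29), a lipase of monoglycerides; Acvrl1 (2.06), a receptor of the TGF-β family; Agap1 (1.99), a GTPase-activating protein; and Fstl1 (1.89), a secreted glycoprotein. Gtf2f2 was 155 in KO and 946 in KI when stimulated as well. The other probe sets of Acvrl1 differed by -0.45 and 0.42 and that of Agap1 by -0.04, so these did not carry the rise. The smallest of the 16 differences was 1.87 and the next gene outside had 1.69.

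**Figure D2:**
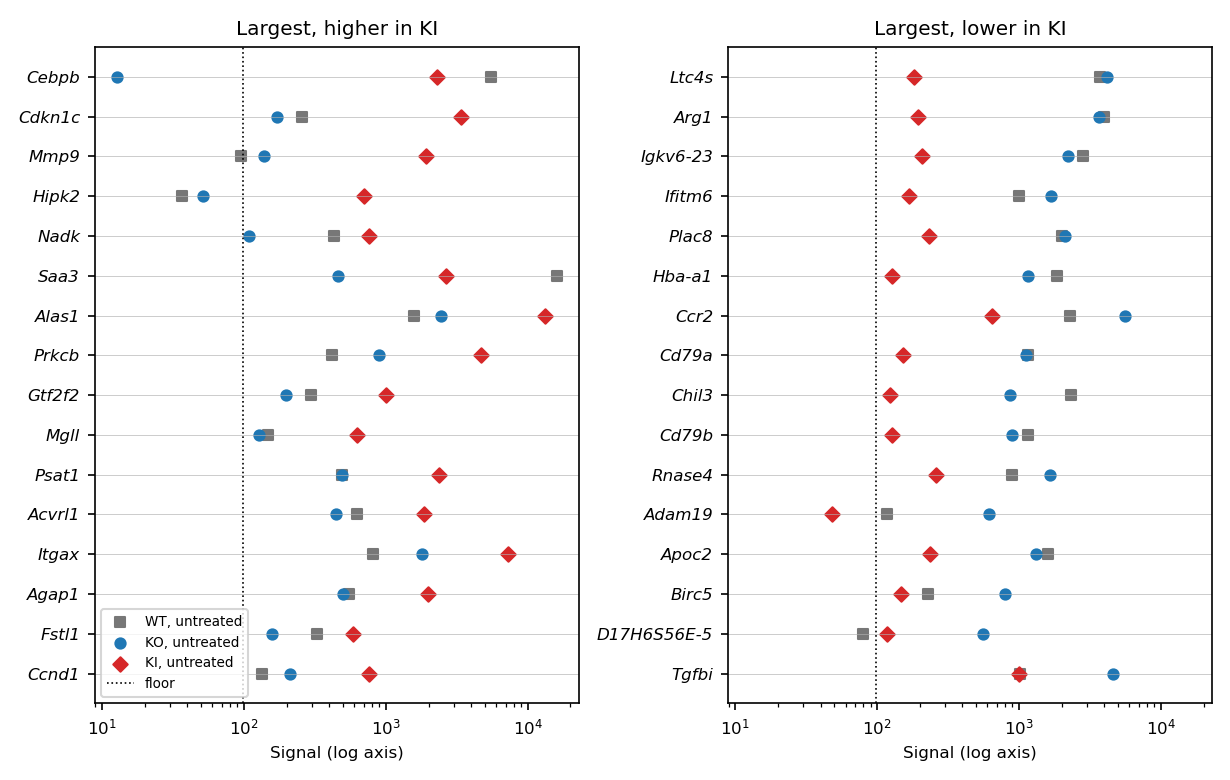
Signals of the 16 genes with the largest rise (left) and the 16 with the largest fall (right) in KI on the untreated WT, KO and KI arrays, on a log axis with the floor as a dotted line and 1 array per point. WT lies nearer KO than KI for 12 of the 16 genes on each side; Cebpb, Saa3, Tgfbi and D17H6S56E-5 are among the exceptions.

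The largest falls were in Ltc4s and Arg1, each a bright gene in untreated KO and WT cells. Ltc4s, which joins leukotriene A4 to glutathione, was 4186 in KO, 3719 in WT and 183 in KI, 22.8-fold lower than KO. After stimulation it was low everywhere, at 223, 245 and 94.5, and its other probe set was under the floor on every array. Arg1, arginase 1, was 3671 in KO, 3947 in WT and 194 in KI, 18.9-fold lower than KO. In stimulated cells it was 389 in KO, 3319 in WT and 132 in KI, so KO then lay near KI rather than near WT. Chil3 was 861 in KO, 2327 in WT and 123 in KI, 6.99-fold below KO, and 370, 640 and 120 stimulated. For Ltc4s, Arg1 and Chil3 the KI array was the lowest genotype in both states.

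Ccr2, Plac8 and Ifitm6, members of the recruited-macrophage list described below, were also among the largest falls. Ccr2, the receptor for CCL2 that brings monocytes out of the marrow, was 5621 in KO, 2283 in WT and 650 in KI, 8.65-fold lower than KO. Plac8 was 2108 in KO, 2015 in WT and 231 in KI, 9.14-fold lower, and Ifitm6 was 1686, 1005 and 169, 9.97-fold lower. After stimulation Ifitm6 was again lowest in KI (469 in KO, 87.0 in KI), whereas Ccr2 was 861 in KO and 666 in KI, within 1. Rnase4, a secreted ribonuclease, was 1652 in KO, 893 in WT and 260 in KI, and Apoc2, the cofactor of lipoprotein lipase, was 1315, 1599 and 236.

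Among the largest falls were also 3 B cell genes and Hba-a1. Cd79a, a chain of the B cell receptor, was 1129 in KO, 1151 in WT and 152 in KI, and its partner Cd79b was 889, 1156 and 128. The immunoglobulin light chain probe set Igkv6-23, of a kind that can read several family members, was 2208, 2833 and 209. Hba-a1, an α-globin chain of red cells, was 1157, 1841 and 128 untreated and 836, 1206 and 141 stimulated, 9.02-fold and 5.93-fold lower in KI than in KO. WT resembled KO in all 4. In RNA from a mixed sample, fewer cells of a type and less RNA per cell cannot be told apart.

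In 4 of the 16 falls WT lay with KI and KO was the high array. Tgfbi, a secreted matrix protein of macrophages, was 4587 in KO, 1025 in WT and 1003 in KI, and 467, 354 and 199 stimulated. Adam19, a membrane protease, was 616 in KO, 118 in WT and 48.2 in KI, and in stimulated cells 517, 172 and 33.6. Birc5, survivin of the mitotic spindle, was 795, 229 and 148, and D17H6S56E-5 was 562, 80.1 and 118. The other probe sets of Tgfbi and D17H6S56E-5 were under the floor on both the KO and the KI array. The smallest of the 16 falls was -2.19 and the next gene outside, Hal, also had -2.19.

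Over all called probe sets, the untreated WT signal was nearer to KO than to KI for 199 of 266 higher ones (74.8%) and 352 of 500 lower ones (70.4%). KI stood at least 1 from WT with WT within 1 of KO in 154 of the higher and 256 of the lower probe sets. KO stood apart in the same sense in 38 and 85. These probe sets were picked for a gap between KI and KO, so a chance deviation of either array would also leave WT at the other. Across all non-control probe sets, log2 signals correlated with Pearson r of 0.96 for untreated KI and KO. It was 0.952 for KO and WT and 0.925 for KI and WT. KI and KO were thus the closest untreated pair, and the counts hold for the called probe sets only. Of 2891 bright genes, 103 were higher and 148 lower; KI was the array apart for 63 of the higher and 67 of the lower, and KO for 6 and 30. The 30 lower genes with KO apart included Tgfbi, Stab1 (a scavenger receptor; 1447 in KO, 424 in WT, 408 in KI), Gatm (creatine synthesis; 3630, 1271, 1382) and 6 of the cell division list described below: Birc5, Hmgb2, Pclaf, Ccnb2, Cdk1 and Stmn1. Gatm, Cdk1 and Stmn1 were named after their values were seen.

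In 36 lists of genes by function, 1039 distinct genes were listed and 709 were measured; 107 were in several lists. Beside the 3.41% and 6.43% of all named genes, the lists gave the following counts, and medians are compared with the -0.09 of all named genes. Of the C/EBP and other leucine-zipper factors, 3 of 29 were higher (Cebpb, Bach1 and Atf5) and 2 lower (Nfil3 and Cebpd), with a median of 0.04. Bach1, a repressor of haem-regulated genes, was 1328 in KO, 454 in WT and 3171 in KI, and 683, 622 and 1671 stimulated. Of 23 measured genes described as C/EBPβ targets, 4 were higher (Saa3, Il1a, S100a8 and Il1rn) and 4 lower (Arg1, Chil3, Cxcl1 and Elane), with a median of -0.13. So the described targets lay on both sides. S100a8, a calcium-binding protein of myeloid cells, was 195 in KO, 556 in KI and 506 in WT, whereas Cxcl1, a neutrophil chemokine, was 288, 117 and 565.

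The lists of recruited-macrophage, complement and receptor genes had more lower than higher members, as did all named genes (6.43% and 3.41%). Of 19 genes linked to recruited inflammatory macrophages, 7 were lower (Ifitm6, Plac8, Ccr2, Chil3, Mmp8, S100a4 and Cx3cr1), 2 higher (Mmp9 and Itgax) and the other 10 within 1, with a median of -0.43. S100a4, a calcium-binding protein of motile cells, was 9345 in KO, 9241 in WT and 3147 in KI. Against WT, the median of this list was -0.81 in KI and 0.05 in KO, which share the WT array. In the stimulated pair 5 of 19 were lower and 2 higher. More lower members were not particular to this list. Of 12 resident peritoneal macrophage genes 4 were lower and 2 higher, with a median of -0.16. Of 13 alternative activation genes 3 were lower and 1 higher, with a median of -0.28. Of 14 complement genes 3 were lower and 0 higher, with a median of -0.55: properdin (Cfp) was 4726 in KO and 1577 in KI, C1qa was 9997 and 4182, and C1qb was 15965 and 7432. WT signals of these 3 were 4244, 12071 and 15606, near KO. Of 28 chemokine and growth factor receptors, 6 were lower and 0 higher; besides Ccr2 they were Ifnar2 (-1.66), Cxcr4 (-1.31), Il1r2 (-1.22), Cx3cr1 (-1.20) and Il10ra (-1.03).

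Apart from Arg1, the cytokine and enzyme genes fixed for naming were dim or within 1 on the untreated arrays. The lists of inflammatory genes held calls. Il6, Ptgs2 and Il12b were under the floor in both KO and KI. Tnf (467 in KO, 402 in KI), Csf3 (180 and 159) and Lcn2 (364 and 271) differed by less than 1. Nos2 (108 and 86.0), Il1b (121 and 68.1) and Ptges (60.6 and 124) each had 1 signal under the floor. Their differences of -0.13, -0.30 and 0.34 are therefore lower bounds on size. With the floor at the 20th percentile they were -0.32, -0.83 and 1.04. Of 24 genes of NF-κB signalling and feedback, 4 (16.7%) were lower and 0 higher: Bcl3 (388 in KO, 110 in WT, 66.3 in KI), Cd40 (327, 205, 109), Ier3 (875, 1329, 331) and Nfkbiz (230, 274, 78.6). After stimulation all 4 lay within 1. Of 15 chemokines 4 (26.7%) were lower and 2 (13.3%) higher, with a median of -0.02: Cxcl2 (459 in KO, 68.1 in KI), Ccl8 (928, 236), Cxcl1 and Ccl6 were lower, and Ccl2 (731, 2250) and Cxcl14 (553, 1129) were higher. Of 17 cytokines, Ltb, lymphotoxin-β, was lower (530 in KO, 131 in KI) and Il1a and Il1rn, the interleukin 1 receptor antagonist, were higher. Of 8 interferon-inducible GTPases, Gbp3 (612 in KO, 202 in KI) and Gbp2b (206, 64.4) were lower and 0 higher, with a median of -0.70, and of 19 type I interferon genes Ifi27 was higher (1.07) and 0 lower.

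Antigen presentation genes are given by pathway, with too few calls to say that the pathways differed. None of 13 measured genes of the MHC class I pathway passed the call size, and the largest was Tapbp (0.79), the tapasin of peptide loading, with a list median of 0.18. Of 13 class II pathway genes, H2-Ob (-1.60) and H2-DMb2 (-1.28), chains that act in B cells and antigen-presenting cells, were lower and Ciita (1.01), the class II transactivator, was higher, with a median of -0.43. Of 15 costimulatory and Fc receptor genes, Cd40, Cd86 (-1.10) and Fcgr2b (-1.04) were lower and Tnfsf9 (1.01) higher, with a median of -0.47.

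Cell division genes had a median of -0.71, beside -0.70 for the interferon-inducible GTPases; which list was lowest changed with the setting. Of 38 S-phase and mitosis genes, 12 (31.6%) were lower in KI and 0 higher, and 28 lay below 0. Kif20a, a mitotic kinesin, was 491 in KO, 153 in WT and 59.8 in KI; Hmgb2, a chromatin protein of dividing cells, was 620, 128 and 140; Ccnb2, a B-type cyclin, was 1579, 536 and 505. Pclaf (-1.73) and Cks2 (-1.59) were also lower. The list's median against WT was 0.08 in KI and 0.66 in KO, so KO was the high array. In stimulated cells its median difference was 0.02, with 1 gene higher and 2 lower of 31. Of 24 G1 cyclins, CDK inhibitors and growth genes, Cdkn1c and Ccnd1 were higher and 5 lower, including Ccng2 (-1.67) and Egr1 (-1.26).

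Chaperone and cholesterol genes had medians well above that of all genes, but not they alone. The 18 measured genes of arginine, nitric oxide and polyamines had a median of 0.41, with 1 higher and 2 lower. Of 30 chaperones of the endoplasmic reticulum and heat shock proteins, 4 were higher and 0 lower, 23 lay above 0 and the median was 0.52. Hspa5, the chaperone BiP, was 3250 in KO, 2271 in WT and 9229 in KI; Hspd1 (1.22), Pdia4 (1.05) and Hsp90b1 (1.03) followed. Of 13 genes of cholesterol synthesis, 4 were higher and 0 lower, with a median of 0.47. Sqle, squalene epoxidase, was 776 in KO, 646 in WT and 2312 in KI; Cyp51 was 136, 187 and 375; Idi1 was 439, 445 and 1174; and Fdps was 1134, 1219 and 2644. In each the KI array was highest and WT lay near KO. In the stimulated pair the medians of the chaperone and cholesterol lists were 0.05 and 0.14, beside -0.06 for all named genes.

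Among 33 lipid uptake and efflux genes, 4 were higher and 2 lower. Lpl, lipoprotein lipase, was 6416 in KO, 3773 in WT and 18932 in KI, and 3446, 3237 and 10238 stimulated. Cd36, a fatty acid and lipoprotein receptor, was 465, 624 and 1435, then 121, 198 and 458. Both were highest in KI in both states, although the other Lpl probe set differed by only 0.17. That of Cd36 differed by 0.00, the value given when both signals are under the floor, so it is no measured disagreement. Scd2 (1.48) and Fasn (1.28), enzymes of fatty acid synthesis, were higher, and Apoc2 and Nr4a1 (-1.17) lower. Of 22 genes of haem and iron, Alas1, Slc11a1 (1.20) and Slc48a1 (1.03), both metal or haem transporters, were higher and Hba-a1 and Ppox (-1.08) lower.

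Of 40 actin and phagocytosis genes, 4 were higher, among them Acta2 (84.9 in KO, 268 in WT, 336 in KI) and the crosslinker Actn1 (2677, 1061, 7100), and 2 were lower. Bcl2l1, the survival factor BCL-XL, was 1026 in KO, 1195 in WT and 2997 in KI, the single rise among 23 apoptosis genes, of which Birc3 (-1.41), Bad (-1.32) and Cflar (-1.05) were lower. Of 16 eicosanoid genes Ephx1 (1.20) was higher and Ltc4s lower. Of 27 proteases and clotting factors, 4 were higher, including Mmp9 and the clotting starter F3 (1.25), and 3 were lower. Housekeeping lists held few calls: 0 of 18 ribosomal protein, 0 of 30 proteasome and 0 of 18 glycolysis genes passed the call size. Of 35 oxidative phosphorylation genes 1 was lower (Ndufa1, -1.10). Of 42 lysosomal genes 1 was lower (Ctsc, -1.53, with other probe sets at -1.60 and -0.61). Glycolysis genes still had a median of 0.27, with 14 of 18 above 0. Lysosomal genes had a median of 0.17, with 30 of 42 above 0. Medians of the ribosomal, proteasome and oxidative phosphorylation lists were 0.02, 0.09 and -0.03.

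**Figure D3:**
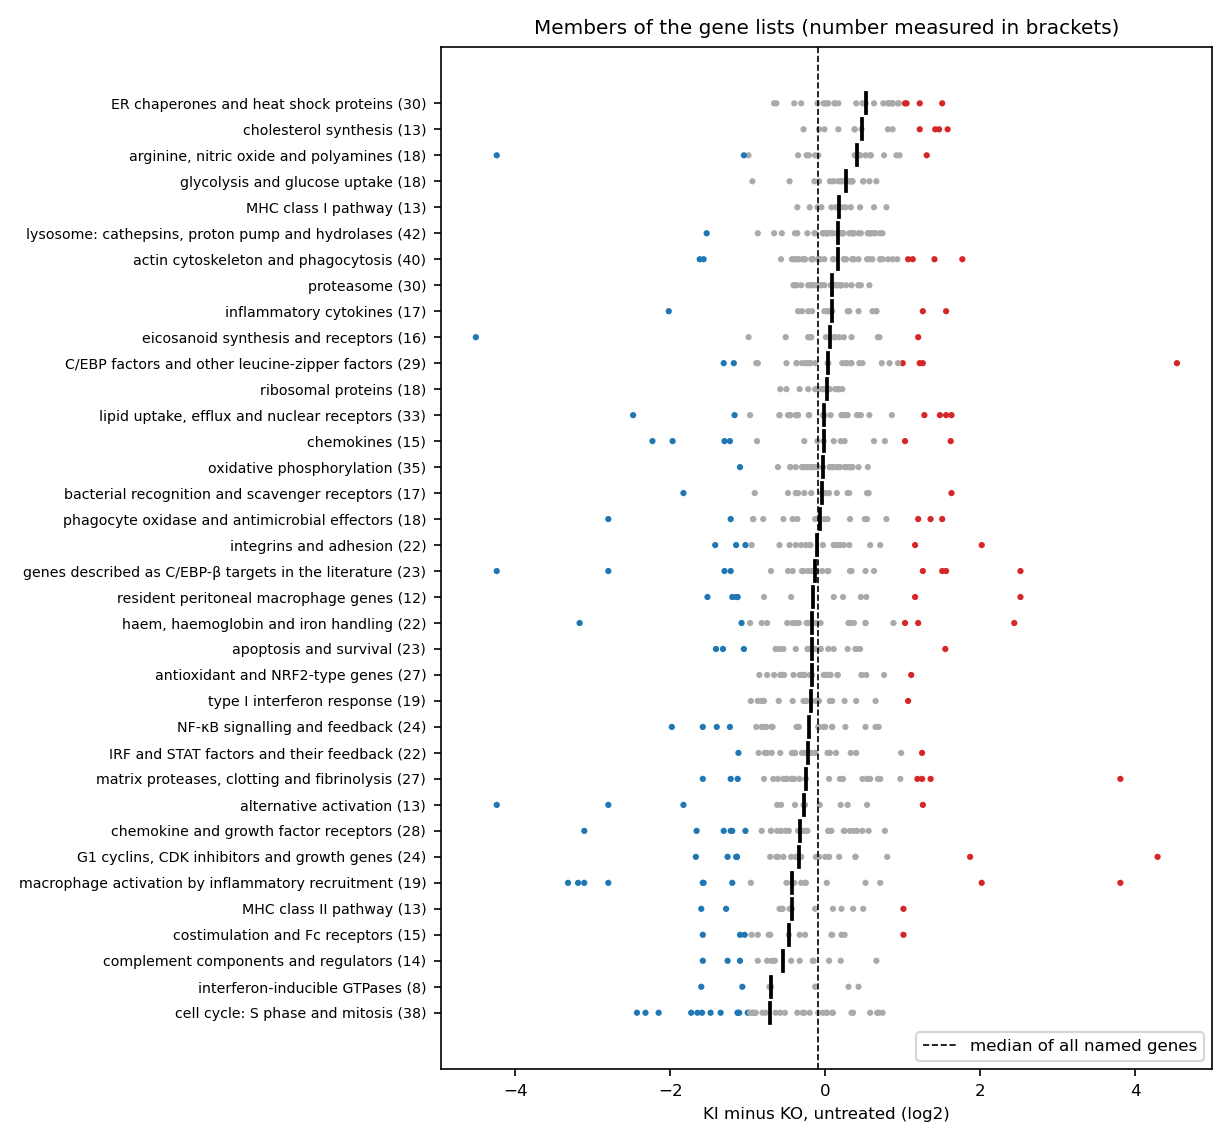
Difference between untreated KI and KO (log2, horizontal) for each measured member of 36 gene lists, ordered by the list median (black tick), with the number measured in brackets. Red members were at least 1 higher in KI and blue ones at least 1 lower; the dashed line is the median of all named genes, -0.09, and the cell division list has a median of -0.71.

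The labels also call the cells peritoneal macrophages. All 11 macrophage markers on the array were measured: Csf1r was 10793 in KO and 11090 in KI, Cd68 was 15197 and 18839, and Lyz2 was 19100 and 19445. Of these markers 1 (C1qa) was lower and 0 higher, with a median of -0.04. B cell markers differed most: 5 of 9 measured were lower (Cd79a, Cd79b, Ighm, Ms4a1 and Blk) and 0 higher, with a median of -1.19. Their summed signal was 10169 in WT, 8975 in KO and 4735 in KI untreated, and 5170, 4526 and 3364 stimulated. Of 14 B cell markers on the array, Cd22 differed by 0.62 and Jchain by -0.24. Of 4 measured erythroid markers 1 was lower (Hba-a1) and 0 higher, 2 lay below and 2 above 0, and the median was -0.13; their summed signal, 2965, 1975 and 1143 on the untreated WT, KO and KI arrays, follows Hba-a1. Neutrophil markers summed to 4017, 2944 and 4181, with 2 of 8 higher (Mmp9, S100a8) and 2 lower (Mmp8, Elane). Mmp9, also a macrophage gene, gave 95.2, 138 and 1924 of these sums. Without it KI would be the lowest of the untreated arrays. T cell markers summed to 1408, 947 and 904, NK cell markers to 694, 557 and 430, and mast cell and basophil markers to 2881, 2598 and 2160. Dendritic markers summed to 5540, 5714 and 11814, the last mainly Itgax. Mesothelial and matrix markers summed to 9901, 6907 and 7031. Platelet markers summed to 676, 606 and 879 and endothelial markers to 1708, 2132 and 2568. None of the 5 eosinophil markers was measured. The part of these cells in the falls of Ltc4s, Hba-a1, Cd79a, Cd79b, Ccr2, Plac8 and Ifitm6 was not tested.

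The arrays also differed in sex-linked and strain-variable genes. Xist, transcribed from the inactive X chromosome, was 104 in KO, 127 in WT and 474 in KI, and Eif2s3y, on the Y chromosome, was 455, 149 and 3.4. In stimulated cells Xist was 241, 641 and 356 and Eif2s3y was 267 in KO and under the floor in WT and KI. Ifi202b, an interferon-inducible gene whose level is known to vary among inbred strains, was 432 in KO, 933 in WT and 7.11 in KI, and 3728 in KO and 3717 in WT after stimulation, with KI under the floor both times. Ifi202b was named after its values were seen. Whether sex or genetic background had a part in the differences was not tested.

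**Figure D4:**
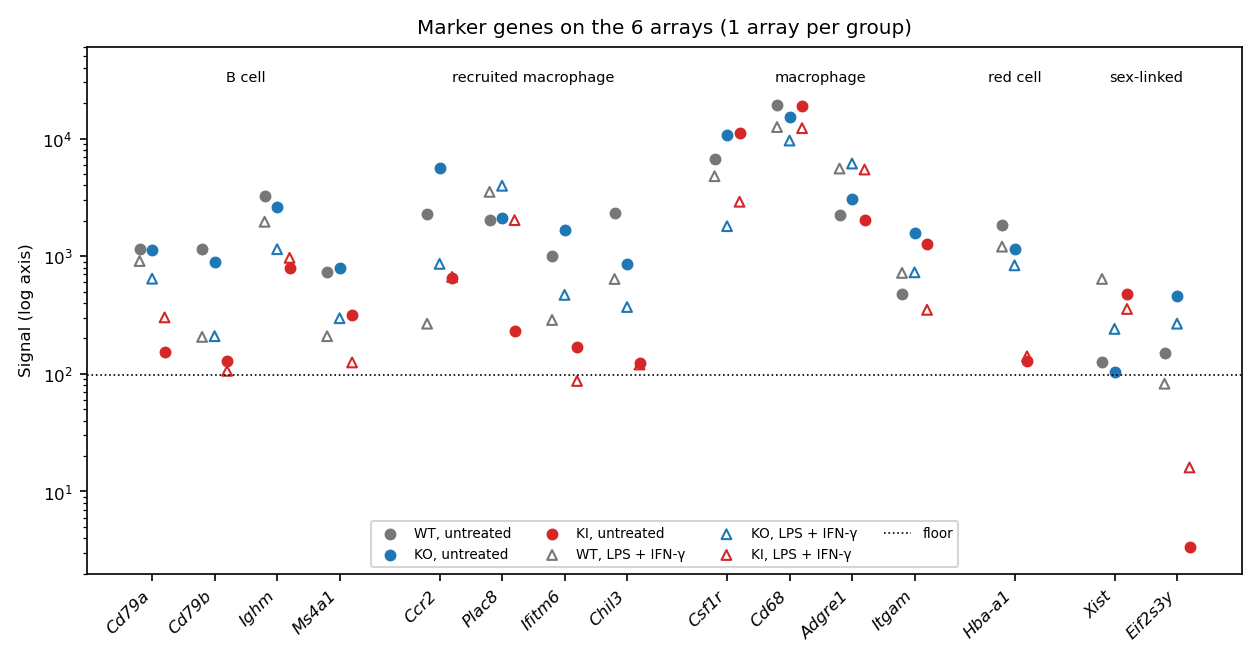
Signals of B cell, recruited-macrophage, macrophage, red cell and sex-linked genes on the 6 arrays, on a log axis; filled circles are untreated and open triangles stimulated, with 1 array per group. In untreated cells the KI signals of Cd79a, Cd79b and Hba-a1 lie between 128 and 152, below those of WT and KO, whereas Csf1r and Cd68 in KI reach 11090 and 18839. The genes shown are a selection. The recruited-macrophage genes are the largest falls of their list, and its higher members, Mmp9 and Itgax, are not shown. Cd22, a B cell marker above 0, and C1qa, the macrophage marker that was lower, are not shown either.

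The stimulated KI and KO arrays share no array with the untreated pair and give the same comparison after stimulation. The labels do not say whether both pairs came from the same animals, so the pairs may not be independent. Over 7235 probe sets above the floor in both pairs, the 2 sets of differences correlated with Pearson r of 0.37 and Spearman rho of 0.32, as a description over probe sets that share their genotype and platform. Of 247 probe sets higher in the untreated pair, 40 (16.2%) were also at least 1 higher in the stimulated pair, against 1.73% of all, and 6 (2.43%) were at least 1 lower. Of 440 lower ones, 71 (16.1%) were also at least 1 lower, against 3.23% of all, and 4 (0.909%) were higher. Their median stimulated differences were 0.31 and -0.41. Of the 16 largest rises 9 passed 1 in the same direction in the stimulated pair, and of the 16 largest falls 10 did.

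**Figure D5:**
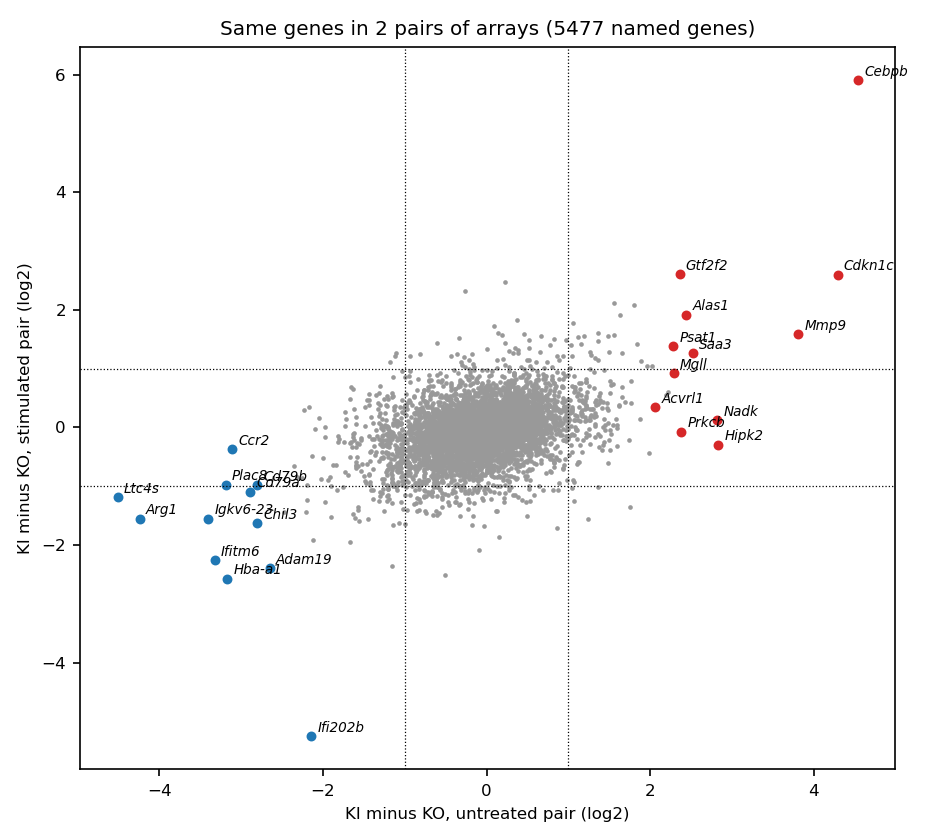
Difference between KI and KO in the untreated pair (horizontal) and the stimulated pair (vertical), both log2, for named genes measured in both, with dotted lines at 1 and -1. Cebpb is the farthest gene at upper right (4.54, 5.91), Cdkn1c and Gtf2f2 are also high in both, and Ifi202b is the lowest point (-2.14, -5.25); Prkcb, Hipk2 and Ccr2 lie near 0 on the vertical axis.

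Genes that neighbour Cebpb in the RefSeq order were also counted. Of the 20 on each side, 31 of 40 were measured, 1 was higher (Mmp9) and 1 lower (Cd40). Among all named genes 3.41% were higher and 6.43% lower, so these counts do not set the neighbours apart. Of the 5 nearest on each side, 0 passed 1. Mmp9 was 18 places away and Cd40 15 places away, on the same side. The nearest neighbours Ube2v1 and Ptpn1 differed by -0.11 and 0.27.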

How the data were processed

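RNA from mouse peritoneal exudate cells was measured on 6 Affymetrix arrays, 1 for each of 3 genotypes untreated and after LPS with interferon-γ. The deposited values are linear signal intensities; the submitters' processing notes name MAS5, with version and settings not given in the sources used here. Groups were taken from the labels. The authors' intensities were brought to a common 2% trimmed mean (495.7 to 496.4 before scaling), floored at the 40th percentile (98.2) and converted to log2 in Python 3.11.15 with pandas 2.3.3 and numpy 2.4.6. Where the lower signal was under the floor, the fold was computed from the floor and is written as "at least".

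Each of 8251 named genes took the values of the probe set that was brightest on average over the arrays. The platform annotation gave 1 symbol to 10833 probe sets, several to 396 and none to 1193; 10817 matched a RefSeq gene of GRCm38.p6, and 0 symbols changed. The 66 control probe sets were left out. Across arrays 55.7% to 65.7% of probe sets were above the floor, and the 3′ to 5′ signal ratio of the actin control was 1.01 to 1.18; the number of arrays limits the precision.

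The genes named are the 16 largest differences in each direction among genes whose brighter array reached the 75th percentile (532), 14 fixed genes, and up to 6 called members of each list. Members and lists were chosen with earlier results of these data known. Alternatives were other floors, a pseudocount of 50, quantile normalization, median centring, bright probe sets only, no filter and the mean of all probe sets. The code was tested on simulated data.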

Additional observations from a re-analysis of the deposited data

Results flagged for a closer look

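Tk1, thymidine kinase of S phase, moved in opposite directions in the untreated and stimulated pairs: KI minus KO was -1.11 untreated (652 in KO, 302 in KI) and at least 1.27 stimulated (93.0 in KO, under the floor, and 237 in KI). Vwf, von Willebrand factor of endothelium and platelets, did so the other way, with 1.04 untreated (340 in KO, 701 in KI) and -1.03 stimulated (210 in KO, 102 in KI). The difference between the pairs was not tested for either gene, since each pair has 1 array a side.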

How the results depend on the processing

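Of 43 named genes 33 passed 1; 33 stayed past 1 with a floor at the 20th or 60th percentile, a pseudocount of 50 or quantile normalization, 32 with median centring and 31 with the mean of all probe sets, and 0 reversed. Under the same settings, 30 to 35 of 36 list medians kept their side of the median of all genes, and the cell division, complement, recruitment, chaperone and cholesterol lists kept theirs under each; the cell division list ranged from -0.87 to -0.48 relative to all genes. Costimulation and Fc receptors were lower than cell division genes with the floor at the 20th percentile (-0.84 against -0.79) and a pseudocount (-0.60 against -0.53), and interferon-inducible GTPases with the mean of all probe sets (-0.62 against -0.48). The counts of probe sets moved more: 645 higher and 1284 lower with the floor at the 20th percentile, 125 and 202 at the 60th, 123 and 191 over bright probe sets, 314 lower with quantile normalization, and 461 and 269 with median centring, where the median difference turned to 0.12. The share of higher probe sets with WT nearer KI was 40.5% with the lower floor and 15.2% with the higher one, and 34.5% of other probe sets had the same sign without a filter. The cause of these moves was not tested, apart from the number of probe sets entering. Signals near the floor limit what can be seen for dim genes. No paired analysis was possible because each group has 1 array and the labels give no replicate numbers.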

Other observations

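Of 89 named genes past 1 in both the untreated and the stimulated pair, 8 moved in opposite directions. Besides Tk1 and Vwf they were Pla2g2c (1.36 and -1.02), Myoz1 (1.75 and -1.35), Glra1 (1.07 and -1.25), Grb7 (-1.12 and 1.22), Rag1 (1.24 and -1.56) and Chka (-1.18 and 1.11). Apart from Tk1 and Vwf, none had a signal above 532 on any array, and 5 of the 8 had a signal under the floor on at least 1 of the 4 KI and KO arrays.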
